A study of Mus musculus with 24 samples.

Results

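The genes described here are 34 that carry glucose into the cell, split it to pyruvate, turn pyruvate to lactate and back, move lactate across the membrane, or feed pyruvate into the pyruvate dehydrogenase complex. They were chosen by gene symbol. All 34 are among the 23177 genes of the table that compares Zbtb16 null with wild-type (WT) mice and among the 21688 genes of the table that compares Sox3 cKO with WT mice. The cells came from testes of male mice at postnatal day 7 on the C57BL/6J background. Magnetic beads sorted them into a THY1+ fraction, which the study treats as undifferentiated spermatogonia (uSPG), and a KIT+ fraction, treated as differentiating spermatogonia (dSPG). Both fractions also held markers of other testis cells, given further on, so their values are not those of germ cells alone. Zbtb16 null mice were homozygous for luxoid, a spontaneous mutation of the gene for the transcription factor ZBTB16 (PLZF) in every cell of the animal, and their comparison animals were littermates, which in the study's methods could be Zbtb16 +/+ or Zbtb16 +/lu although the labels say WT. In Sox3 cKO mice a floxed gene for the transcription factor SOX3 was removed by Cre recombinase under Ddx4, which acts in germ cells and leaves the other cells of the testis with an intact gene. Each genotype and fraction had 3 libraries, giving 12 per table and 24 in all, and each isolation pooled the testes of 3 mice, so that the spread between libraries is that between pools.

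Glucose enters through facilitative transporters and is trapped by hexokinase. Phosphofructokinase makes the committed step and is activated by a sugar bisphosphate that the PFKFB enzymes make and destroy. Aldolase splits the sugar, and the triose enzymes carry the products to pyruvate, with pyruvate kinase as the last step. Lactate dehydrogenase interconverts pyruvate and lactate: subunit A is usually associated with making lactate and subunit B with using it. Pyruvate enters the mitochondrial acetyl-CoA pool through the pyruvate dehydrogenase complex, which the PDK kinases switch off by phosphorylation. In the testis, Sertoli cells are known to supply lactate to germ cells, and spermatogonial stem cells are commonly described as glycolytic, with a shift toward mitochondrial metabolism on differentiation.

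Values are given as FPKM, read numbers corrected for transcript length and library size, so levels of different genes are compared per length. Library depth, estimated from the spacing of the lowest values, was 25940000 to 35160000 reads in the Zbtb16 table. In the Sox3 table it was 28220000 to 31860000 reads for replicate 1 of each group and 11000000 to 14900000 for replicates 2 and 3. Zbtb16 mRNA was 55.7, 58.7 and 41.97 FPKM in WT THY1+ and 17.5, 18.2 and 15.6 in null THY1+ libraries, and Sox3 mRNA was 0 to 0.0820 FPKM in all cKO libraries against 6.28 to 24.4 in Sox3 WT. Thy1 and Kit followed the labels in both genotypes of the Zbtb16 table and also in Sox3 cKO mice. They went against the labels in the Sox3 WT libraries: Thy1 was 0.253, 0.254 and 0.213 FPKM in those labelled THY1+ and 3.84, 3.59 and 4.06 in those labelled KIT+, while Kit was 48.2, 45.6 and 80.1 and 12.97, 14.04 and 18.8. Those 6 libraries are therefore called labelled THY1+ and labelled KIT+ throughout, their groups were left as labelled, and any direction between the fractions that rests on them carries this doubt. The effect of the Sox3 genotype averaged over both fractions has the same value whichever way these labels run.

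Several glycolytic genes have many processed copies in the mouse genome, so the sequence shared with other genes is given beside the deposited levels. Distinct windows of 50 bases were taken from the longest annotated protein-coding transcript of each member. For Gapdh, 82.5% of the windows occur also in other genes, 213 of them pseudogenes. The deposited level of Gapdh, a transcript usually abundant in dividing cells, averaged 2.84 FPKM in the Zbtb16 table. Pgk1 shared 67.96% of its windows and averaged 0.947 FPKM, Pgam1 shared 41.5% and averaged 3.48 FPKM, and Eno1 shared 72.2% and averaged 9.46 FPKM. Members with less shared sequence had a wide range of levels. Tpi1 averaged 27.2 FPKM with 7.51% shared and Aldoa 84.6 FPKM with 13.5%. Eno3 averaged 10.3 FPKM with 0% shared and Eno2 0.595 FPKM with 0.0364%. Sharing was not always accompanied by a low value, since Pkm shared 34.4% and averaged 109 FPKM, the highest of the 34. The reads came 50 bases long, and the aligner was set to report several places for a read that matched them. How such reads entered the FPKM was not tested here, so the levels of Gapdh, Pgk1, Pgam1 and Eno1 are given as deposited and are not ranked against other genes. Smaller shares were found for Pdhb (30.3%), Ldhb (27.01%), Pfkfb2 (25.1%), Gpi1 (19.3%) and Ldha (16.6%), and in the members not named here at most 1.43% of windows were shared.

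**Figure D1:**
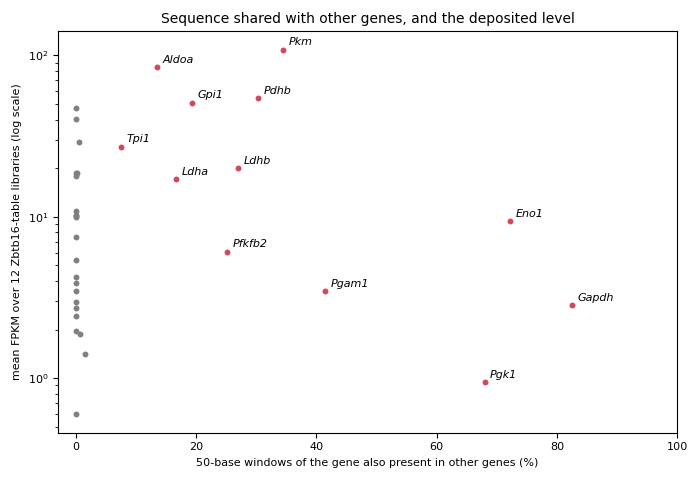
Mean FPKM over the 12 libraries of the Zbtb16 table (vertical, log scale) against the percentage of a gene's 50-base windows that occur in other annotated genes (horizontal), one point per member. Red points share at least 5%; Gapdh, Pgk1, Pgam1 and Eno1 share the most and lie between 0.947 and 9.46 FPKM.

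The promoters of 5 members are shown, those of Slc2a1, Pdk1 and Pdk4 because these had the 3 largest log2 changes between fractions in WT mice of the Zbtb16 table. Those of Ldha and Ldhb are shown because they encode alternative subunits of 1 enzyme that differ in their behaviour here. Each is the 250 bases before a RefSeq transcription start in GRCm38, written 5′ to 3′ on the gene's strand, with ACGTG and its reverse complement CACGT in capitals. These letters are the core of sites bound by hypoxia-inducible factors, and CACGTG, in which both overlap, is the E-box bound by MYC and USF proteins.
Slc2a1 (chr4:119108495-119108744, plus strand): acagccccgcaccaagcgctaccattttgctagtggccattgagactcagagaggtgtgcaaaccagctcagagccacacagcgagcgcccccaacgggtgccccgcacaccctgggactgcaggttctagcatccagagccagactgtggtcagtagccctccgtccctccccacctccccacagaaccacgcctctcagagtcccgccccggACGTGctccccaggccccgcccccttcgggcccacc
Ldha (chr7:46845554-46845803, plus strand): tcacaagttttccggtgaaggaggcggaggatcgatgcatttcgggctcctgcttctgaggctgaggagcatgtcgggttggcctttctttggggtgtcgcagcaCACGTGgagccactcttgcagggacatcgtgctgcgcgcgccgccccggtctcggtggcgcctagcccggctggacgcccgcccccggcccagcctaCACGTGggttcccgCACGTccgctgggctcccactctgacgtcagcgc
Ldhb (chr6:142507958-142508207, minus strand): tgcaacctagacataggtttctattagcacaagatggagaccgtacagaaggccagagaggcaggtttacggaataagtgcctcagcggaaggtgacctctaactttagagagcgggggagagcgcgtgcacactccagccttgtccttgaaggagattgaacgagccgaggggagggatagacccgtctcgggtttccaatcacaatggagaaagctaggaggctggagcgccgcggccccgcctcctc
Pdk1 (chr2:71872974-71873223, plus strand): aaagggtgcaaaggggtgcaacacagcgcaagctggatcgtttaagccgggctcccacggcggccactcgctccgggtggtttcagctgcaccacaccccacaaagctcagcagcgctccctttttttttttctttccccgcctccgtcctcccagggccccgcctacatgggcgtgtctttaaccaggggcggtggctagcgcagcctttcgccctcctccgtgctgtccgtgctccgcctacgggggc
Pdk4 (chr6:5496279-5496528, minus strand): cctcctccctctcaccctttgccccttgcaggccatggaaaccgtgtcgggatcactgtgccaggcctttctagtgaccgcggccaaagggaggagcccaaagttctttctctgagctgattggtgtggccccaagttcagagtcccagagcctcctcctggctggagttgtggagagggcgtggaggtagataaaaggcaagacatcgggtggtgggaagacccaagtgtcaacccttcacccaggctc
The Ldha promoter holds 5 matches counted on both strands, 4 of them forming a pair of CACGTG sites, and the Slc2a1 promoter holds 1. The promoter of a second RefSeq start of Ldha (chr7:46846832-46847081, plus strand) holds none, and neither do those of Ldhb and Pdk4 or either promoter of Pdk1. Of the 33 members with a RefSeq promoter, 15 (45.5%) have a match in at least 1 promoter, some genes having several. By promoter, 19 of 52 member promoters (36.5%) hold a match, against 16.6% of all 32851 promoters of this length. A match is a description of the letters and says nothing of whether a factor binds there.

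The first question was how these transcripts differ between the uSPG and dSPG fractions in WT mice. In the Zbtb16 WT libraries, 11 of the 34 members passed the call, which needed a change of at least 1.5-fold and an adjusted p of at most 0.05 in limma on log2(FPKM + 0.1). Of all genes tested, 21.2% were called (7.21% higher and 14% lower in KIT+). Lower in KIT+ were 8 members: both glucose transporters, Hk1, Pfkp, Pfkfb3, Pkm, Pdha1 and Pdk1. Higher were 3: Ldhb, the monocarboxylate transporter Slc16a1 and Pdk4. The median log2 change of the 34 was -0.08, beside -0.03 over all genes, so the pathway did not move as a block in these libraries. In bulk samples, fewer cells of a type and less RNA per cell cannot be told apart.

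Both transporters of glucose were lower in KIT+ cells. Slc2a1 (GLUT1), the basal glucose transporter of most dividing cells, was at 12.4, 13.2 and 10.5 FPKM in the 3 WT THY1+ libraries and 4.76, 6.75 and 5.38 in WT KIT+ (log2 change -1.09 ± 0.14 (SE), adjusted p = 0.000140). Slc2a3 (GLUT3), a transporter of high affinity, was at 3.94, 3.48 and 2.98 and 1.37, 1.89 and 1.64 FPKM (log2 change -1.04 ± 0.18 (SE), adjusted p = 0.00118). For neither gene did the THY1+ and KIT+ values overlap, and both levels differed by similar folds (2.13-fold and 2.06-fold).

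In the hexose phase, the isozymes of a single step did not move together. Hk1 was at 9.52, 8.59 and 5.702 FPKM in THY1+ and 3.77, 5.34 and 3.51 in KIT+ (log2 change -0.89 ± 0.25 (SE), adjusted p = 0.0199), without overlap. Hk2, the more abundant hexokinase and the form induced in growing cells, was at 19.7, 20.9 and 12.99 and 11.7, 20.03 and 13.3 FPKM, and its groups overlapped (log2 change -0.26 ± 0.26 (SE), adjusted p = 0.495). Of the phosphofructokinases, the platelet form Pfkp was at 4.79, 5.05 and 4.58 FPKM in THY1+ and 2.23, 3.13 and 2.82 in KIT+ (log2 change -0.81 ± 0.14 (SE), adjusted p = 0.00147), with every THY1+ library above every KIT+ library. The most abundant form, Pfkm, was at 10.7, 9.84 and 7.17 and 7.38, 12.2 and 8.11 FPKM, and Pfkl ranged from 2.34 to 5.62 FPKM over the 6 libraries; both overlapped and neither was called. Gpi1, which converts glucose phosphate to fructose phosphate, was at 56.9, 61.9 and 50.1 FPKM in THY1+ and 37.1, 50.7 and 40.7 in KIT+, an adjusted p of 0.0412 with a fold short of the limit (1.32-fold). Aldoa, the aldolase of most tissues, was at 82.7, 86.8 and 80.2 and 59.2, 83.6 and 71.1 FPKM with overlapping groups, and Aldoc (at least 8.42 FPKM in each library) also overlapped.

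The PFKFB enzymes set the level of the activator of phosphofructokinase, and they too diverged. Pfkfb3, the form with the strongest kinase activity, was at 2.296, 2.53 and 2.23 FPKM in THY1+ and 1.23, 1.62 and 1.22 in KIT+ libraries (log2 change -0.76 ± 0.14 (SE), adjusted p = 0.00215), without overlap. Pfkfb2, the most abundant form, ran the other way at 4.73, 4.99 and 4.805 and 6.32, 6.96 and 6.19 FPKM, also without overlap, but at 1.33-fold it missed the fold limit (log2 change 0.41 ± 0.09 (SE), adjusted p = 0.00650). Pfkfb1 and Pfkfb4 lay between 1.83 and 4.40 FPKM with overlapping groups.

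In the triose phase, Pkm was the only member called among 8. Pkm, which encodes both the PKM1 and PKM2 splice forms of pyruvate kinase that this gene-level value does not separate, was at 127, 134 and 124 FPKM in THY1+ and 46.6, 77.9 and 64.7 in KIT+ (log2 change -1.05 ± 0.17 (SE), adjusted p = 0.000767), with no overlap. Tpi1, which interconverts the triose phosphates, was at 24.6, 21.997 and 21.9 and 22.1, 31.3 and 30.6 FPKM. The values of Gapdh were 2.41, 2.63 and 2.89 and 2.49, 3.102 and 3.58 FPKM, those of Pgk1 0.695, 1.098 and 0.896 and 0.844, 1.23 and 0.935, and those of Pgam1 2.96, 3.25 and 2.51 and 2.47, 3.895 and 3.66. All 4 overlapped between the fractions. Eno1 was at 8.79, 10.4 and 8.88 FPKM in THY1+ and 5.27, 8.199 and 7.04 in KIT+ (log2 change -0.46 ± 0.15 (SE), adjusted p = 0.0347) and did not overlap, but its fold was short of the limit, and Eno2 was under 1 FPKM in all 6 libraries. Eno3 was at 7.52, 9.01 and 8.59 and 8.95, 9.903 and 10.5 FPKM and overlapped.

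Lactate genes were higher in KIT+ or not called. Ldhb was at 15.6, 12.4 and 12.9 FPKM in THY1+ and 18.1, 25.2 and 22.6 in KIT+ (log2 change 0.68 ± 0.13 (SE), adjusted p = 0.00269), without overlap. Ldha, the partner subunit, was at 15.8, 15.2 and 14.6 and 9.14, 15.8 and 14.01 FPKM and overlapped (log2 change -0.26 ± 0.18 (SE), adjusted p = 0.318). Slc16a1 (MCT1), which carries lactate and pyruvate across the plasma membrane, was at 28.1, 29.8 and 29.7 FPKM in THY1+ and 51.96, 57.9 and 59.3 in KIT+ (log2 change 0.95 ± 0.08 (SE), adjusted p = 7.19e-06), the smallest adjusted p of the 34. Slc16a3 (MCT4), usually tied to lactate export, ranged from 1.66 to 3.13 FPKM and overlapped.

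At the entry of pyruvate to the mitochondrion, the subunits of the complex did not all move in the same direction, and neither did its kinases. Pdha1, the X-linked catalytic subunit of pyruvate dehydrogenase, was at 35.8, 33.4 and 35.9 FPKM in THY1+ and 15.2, 23.1 and 21.8 in KIT+ (log2 change -0.83 ± 0.15 (SE), adjusted p = 0.00221). Pdhb, its partner subunit, was at 47.002, 46.5 and 52.1 and 62.5, 55.1 and 60.96 FPKM, higher in every KIT+ library but by only 1.23-fold. Pdhx, which anchors another enzyme of the complex, was higher by 1.34-fold and was not called either, and Dlat (7.52 to 12.7 FPKM) overlapped.

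Of the kinases, Pdk1 showed the largest change of all 34 members. It was at 23.8, 24.6 and 26.4 FPKM in THY1+ and 5.67, 9.75 and 9.64 in KIT+ (log2 change -1.61 ± 0.17 (SE), adjusted p = 4.43e-05), 3.05-fold lower. Pdk3, the most abundant kinase, was at 32.9, 33.1 and 37.3 and 46.8, 42.7 and 45.9 FPKM, higher in every KIT+ library but by 1.31-fold (log2 change 0.39 ± 0.09 (SE), adjusted p = 0.00545). Pdk4, a kinase induced by fasting and fatty acids in many tissues, was at 1.11, 0.569 and 0.418 FPKM in THY1+ and 0.919, 2.104 and 1.94 in KIT+ (log2 change 1.15 ± 0.37 (SE), adjusted p = 0.0376). The Pdk4 groups overlapped through THY1+ replicate 1 and KIT+ replicate 1, and Pdk2 (1.08 to 2.74 FPKM) was not called.

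Among the 11 calls, 3 depended on single libraries. Hk1 was not called without WT THY1+ replicate 1 or 2 or WT KIT+ replicate 1 or 3 (log2 change -0.83 to -0.75, adjusted p 0.0655 to 0.0822), Pdk4 was not called without WT THY1+ replicate 2 or 3 or WT KIT+ replicate 2 or 3 (log2 change 0.89 to 1.07, adjusted p 0.107 to 0.124), and Ldhb was not called without WT KIT+ replicate 2 (log2 change 0.57, adjusted p 0.0103). Eno1 and Eno2 became calls without WT KIT+ replicate 2 (log2 change -0.60 and -0.87).

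**Figure D2:**
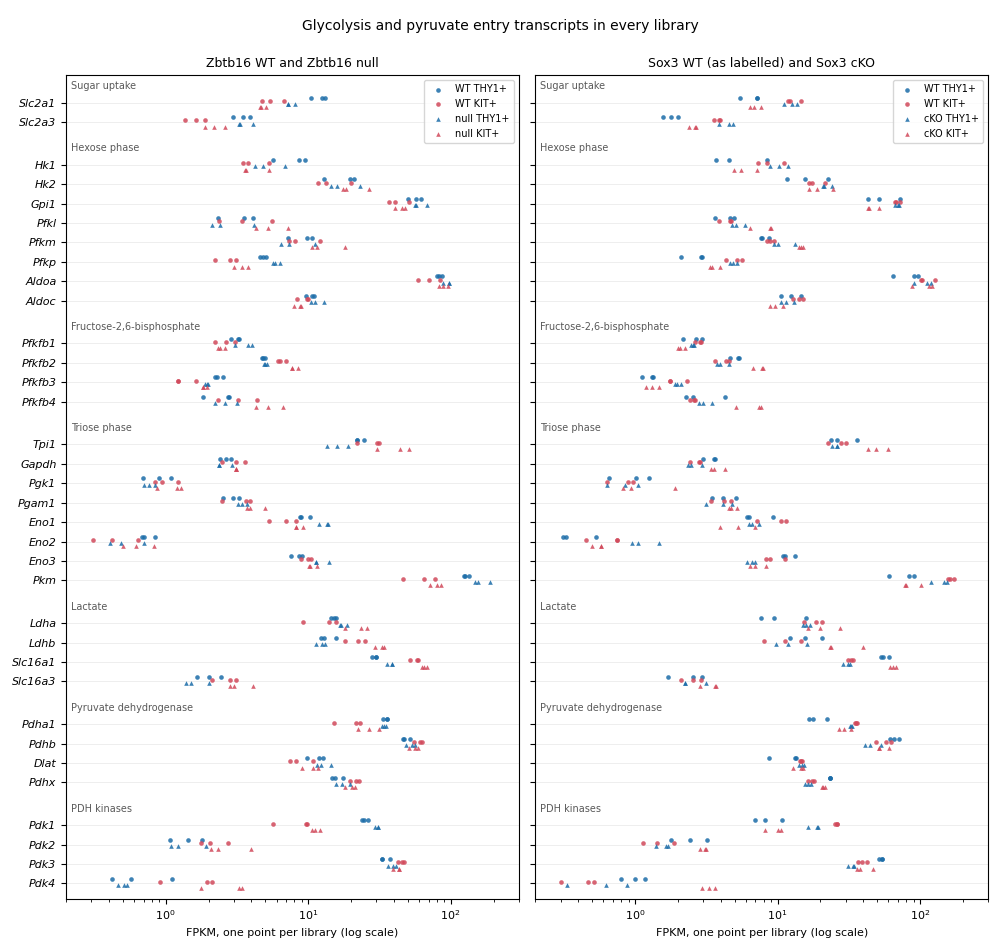
FPKM of the 34 members (rows, by role) in every library on a log scale, with the Zbtb16 table on the left and the Sox3 table on the right. Circles are WT and triangles mutant libraries, blue THY1+ and red KIT+ as labelled; in the left panel Pkm and Pdk1 lie to the right in blue and Slc16a1 to the right in red, and in the right panel the colours of the WT circles are exchanged for these genes.

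The same fraction step was measured in libraries with no sample in common with the WT step: the Zbtb16 null libraries and, in the other table, the Sox3 cKO libraries. The Zbtb16 WT and null steps are not independent, as they came from a joint fit with a shared estimate of the spread. Their same-numbered libraries also deviated together (r = 0.133 to 0.475 in THY1+ and 0.362 to 0.520 in KIT+). In Zbtb16 null mice 15 members were called, 9 higher and 6 lower in KIT+, beside 29.2% of all genes (13.2% higher and 16% lower). In Sox3 cKO mice 15 were called, 8 higher and 7 lower, beside 22.7% of all genes (10.5% higher and 12.2% lower). Across the 3 steps, 7 members were called in the same direction each time: Slc2a1, Slc2a3, Pkm and Pdk1 were lower in KIT+, and Ldhb, Slc16a1 and Pdk4 were higher. Of the 21037 genes tested in both tables, 7.47% were called lower and 4.24% higher in all 3 steps, and the 7 members make 4 of 34 and 3 of 34. Another 13 members were called in 1 or 2 of the steps, 14 in none, and no member was called in opposite directions.

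Slc2a1 was at 7.23, 8.02 and 7.25 FPKM in null THY1+ and 4.61, 5.02 and 4.63 in null KIT+ (log2 change -0.65 ± 0.14 (SE), adjusted p = 0.00293), and at 13.7, 11.04 and 12.7 in cKO THY1+ and 7.64, 6.46 and 6.78 in cKO KIT+ (log2 change -0.83 ± 0.14 (SE), adjusted p = 0.00113). Slc2a3 was at 3.31, 4.12 and 3.27 and 1.88, 2.62 and 2.17 FPKM in the null and 3.89, 4.86 and 4.53 and 2.66, 2.403 and 2.62 in the cKO (log2 changes -0.66 and -0.76). Neither transporter overlapped between the fractions in either mutant. Pkm was at 147, 189.6 and 156 FPKM in null THY1+ and 71.6, 86.2 and 80.4 in null KIT+ (log2 change -1.04 ± 0.17 (SE), adjusted p = 0.000515), and at 147, 120.0 and 155 and 80.04, 78.8 and 102 in the cKO (log2 change -0.69 ± 0.16 (SE), adjusted p = 0.00837). Pdk1 was at 29.6, 31.03 and 31.2 and 10.6, 11.1 and 12.2 FPKM in the null (log2 change -1.43 ± 0.17 (SE), adjusted p = 7.04e-05) and at 19.3, 16.3 and 18.95 and 10.5, 8.17 and 10.1 in the cKO (log2 change -0.92 ± 0.15 (SE), adjusted p = 0.000957). Both genes were lower in every KIT+ library than in any THY1+ library of the same genotype.

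Slc16a1 was at 39.000, 35.6 and 39.05 FPKM in null THY1+ and 65.5, 63.4 and 68.5 in null KIT+, and at 32.1, 28.7 and 30.99 and 67.4, 64.2 and 61.2 in the cKO (log2 changes 0.80 and 1.07). Ldhb was at 11.4, 13.1 and 12.5 and 29.5, 32.7 and 34.1 FPKM in the null (log2 change 1.37 ± 0.13 (SE), adjusted p = 1.61e-05) and at 11.9, 16.2 and 9.74 and 39.8, 23.5 and 23.8 in the cKO (log2 change 1.18 ± 0.28 (SE), adjusted p = 0.00886). Neither overlapped. Pdk4 gave the largest log2 change in both mutants, at 0.465, 0.538 and 0.513 and 1.76, 3.26 and 3.44 FPKM in the null (log2 change 2.21 ± 0.37 (SE), adjusted p = 0.000717) and 0.628, 0.879 and 0.331 and 2.96, 3.61 and 3.296 in the cKO (log2 change 2.32 ± 0.29 (SE), adjusted p = 0.000134), again without overlap.

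Members called in both mutants but not in WT were Pfkl, Pfkfb2, Pfkfb4, Tpi1 and Pdk2, all higher in KIT+. Tpi1 was at 13.6, 19.1 and 15.9 FPKM in null THY1+ and 30.2, 44.2 and 50.8 in null KIT+ (log2 change 1.34 ± 0.20 (SE), adjusted p = 0.000298), and at 25.95, 25.97 and 24.2 and 59.4, 43.2 and 49.4 in the cKO (log2 change 0.98 ± 0.17 (SE), adjusted p = 0.00115). Pfkfb4, a PFKFB form abundant in testis, was at 2.601, 3.17 and 2.23 and 4.28, 6.69 and 5.23 FPKM in the null and 2.79, 2.98 and 3.48 and 7.603, 7.45 and 5.103 in the cKO (log2 changes 0.98 and 1.08). Pfkfb2 rose by log2 0.65 in the null and 0.86 in the cKO, Pfkl by 0.96 and 0.60, and Pdk2 by 0.92 and 0.90. That a member passed in a mutant and not in WT is no test of a difference between genotypes: that test is the genotype by fraction interaction given further on for Zbtb16, and was not run for Sox3. Called in the null alone or in the null and WT were Slc16a3 (log2 0.98 in the null), Eno1 (-0.60) and Pfkp (-0.78), and called in the cKO alone or in the cKO and WT were Gpi1 (-0.59), Eno2 (-0.93) and Hk1 (-0.80).

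With the replicate number as a block, Pfkm was also called in the null step (log2 change 0.68, adjusted p = 0.00534, limma). In the null step, Slc2a3 was not called without null THY1+ replicate 2 or null KIT+ replicate 1 (log2 change -0.56 to -0.55, adjusted p 0.0425 to 0.0452), Pfkl without null THY1+ replicate 1 or 3 or null KIT+ replicate 2 or 3 (log2 change 0.76 to 0.99, adjusted p 0.0836 to 0.153), Eno1 without null THY1+ replicate 1 or 2 or null KIT+ replicate 2 or 3 (log2 change -0.58 to -0.57, adjusted p 0.0231 to 0.0294) and Pdk2 without null THY1+ replicate 1 or 3 or null KIT+ replicate 2 (log2 change 0.65 to 0.84, adjusted p 0.0814 to 0.102). Pfkm, Pfkfb1 and Pgk1 became calls on leaving out null THY1+ replicate 2 (Pfkm and Pfkfb1) or null KIT+ replicate 1 (Pfkfb1 and Pgk1), at log2 changes of 0.91 for Pfkm, -0.66 to -0.59 for Pfkfb1 and 0.64 for Pgk1. In the cKO step, Hk1 was not called without cKO THY1+ replicate 1 or 2 or 3 or cKO KIT+ replicate 1 or 2 (log2 change -0.90 to -0.68, adjusted p 0.0619 to 0.144), Gpi1 without cKO THY1+ replicate 1 or 3 or cKO KIT+ replicate 1 or 2 (log2 change -0.58 to -0.54, adjusted p 0.0482 to 0.0582), Pfkl without cKO THY1+ replicate 1 or 3 or cKO KIT+ replicate 1 or 3 (log2 change 0.51 to 0.58, adjusted p 0.0638 to 0.0741) and Eno2 without cKO THY1+ replicate 2 or cKO KIT+ replicate 1 (log2 change -0.88 to -0.76, adjusted p 0.0593 to 0.0646). Pfkfb3 became a call without cKO KIT+ replicate 1 (log2 change -0.62) and Gapdh without cKO THY1+ replicate 3 (0.60). Among the members called in every step, Pkm and Ldhb lost the cKO call with replicates 2 and 3 alone. Their log2 changes were then -0.60 (adjusted p = 0.146, limma) and 0.91 (adjusted p = 0.116, limma). With a pseudocount of 1, Slc2a1 and Slc2a3 lost the null call (log2 change -0.56 and -0.50). Pdk4 lost the WT call with a pseudocount of 1 (log2 change 0.63, adjusted p = 0.0535, limma). It also lost that call with the compared groups alone (log2 change 1.15, adjusted p = 0.0740, limma).

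**Figure D3:**
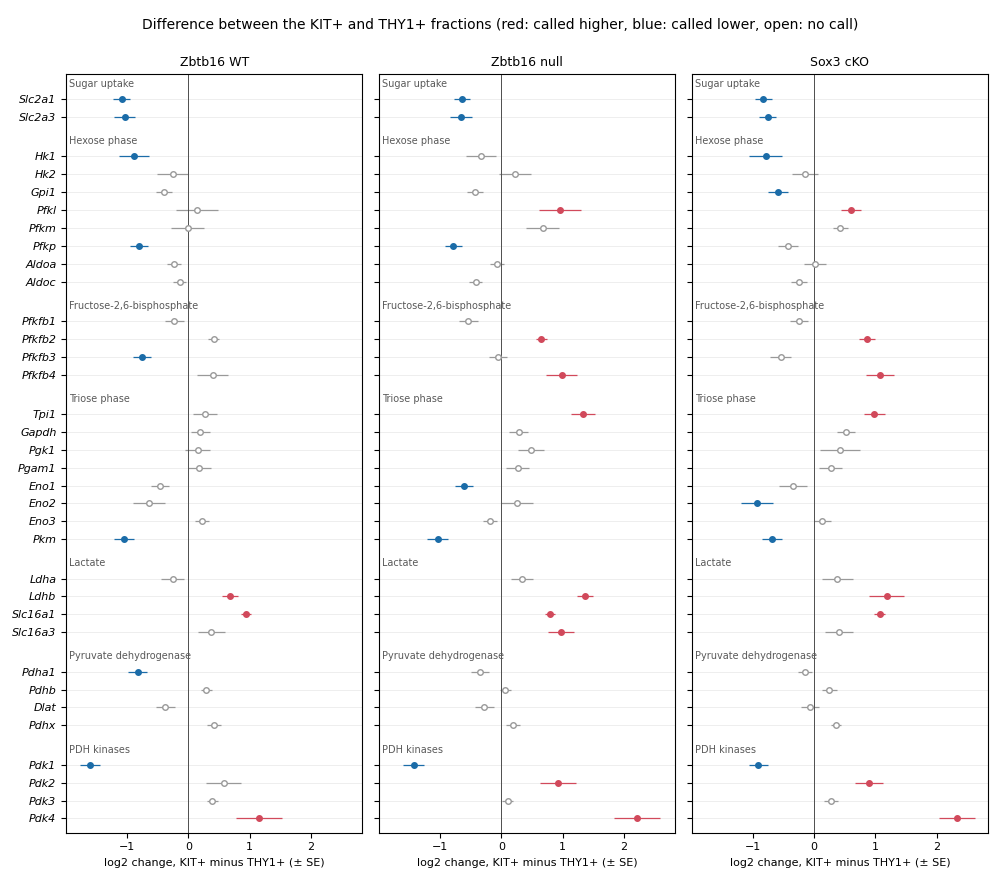
Difference in log2(FPKM + 0.1) between KIT+ and THY1+ libraries for each member (rows), with the standard error of the fit, in Zbtb16 WT, Zbtb16 null and Sox3 cKO mice. Filled red points are called higher and filled blue points called lower in KIT+; Slc2a1, Slc2a3, Pkm and Pdk1 are blue and Ldhb, Slc16a1 and Pdk4 red in all 3 panels.

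In the Sox3 WT libraries as labelled, 10 members were called between KIT+ and THY1+, 7 higher and 3 lower in labelled KIT+, beside 19.7% of all genes (13.1% higher and 6.53% lower), and each of them but Ldha was called in the opposite direction in at least 1 of the 3 other steps. Slc2a1 was at 7.23, 5.46 and 7.16 FPKM in labelled THY1+ and 12.3, 11.8 and 14.7 in labelled KIT+, Pkm at 83.3, 60.6 and 91.3 and 163, 157 and 174, Pdk1 at 10.8, 7.0003 and 8.16 and 25.4, 26.3 and 26.1, and Slc16a1 at 60.3, 55.4 and 53.6 and 32.7, 33.6 and 31.4. None of these overlapped. The 4 members lower in the 3 other steps were all called higher here, and of the 3 higher ones Slc16a1 and Pdk4 were called lower, as Thy1 and Kit themselves were exchanged. Ldhb (log2 change -0.51) was not called. Without overlap and in opposite directions in cKO and in WT as labelled were 12 of 34 members (35.3%), beside 25% of all genes. Pdha1, Pfkp, Ldha and Pdk2 made up the rest of the 10, of which Ldha (without WT THY1+ replicate 2 or 3 or WT KIT+ replicate 1 or 2 (log2 change 0.56 to 0.76, adjusted p 0.0942 to 0.124)) and Pdk2 (without WT THY1+ replicate 2 or 3 or WT KIT+ replicate 1 or 2 (log2 change -0.69 to -0.49, adjusted p 0.102 to 0.144)) depended on single libraries. Pdk4 did so too (without WT THY1+ replicate 1 or 2 or WT KIT+ replicate 3 (log2 change -1.04 to -0.87, adjusted p 0.0626 to 0.0830)), while Hk1 (log2 change 1.08 without WT labelled THY1+ replicate 3) and Pfkfb3 became calls (without WT THY1+ replicate 1 or 3 or WT KIT+ replicate 1 or 2 (log2 change 0.61 to 0.65, adjusted p 0.0401 to 0.0480)).

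Other cells in the fractions moved with the same step. The summed level of 12 measured macrophage markers was 1086 to 1241 FPKM in WT THY1+ and 8.04 to 10.1 in WT KIT+ libraries, and all 12 were called lower in KIT+. Their sum was 513 to 947 and 7.83 to 20.2 in the null and 1325 to 1515 and 10.8 to 11.1 in the cKO. Of 9 T cell markers 7 were called lower in WT KIT+, their sum being 13.96 to 15.6 FPKM in THY1+ and 2.16 to 2.802 in KIT+. The 8 Leydig cell markers went the other way, all called higher in WT KIT+, with sums of 89.5 to 129 FPKM in THY1+ and 1227 to 2292 in KIT+, 56.1 to 84.6 and 2061 to 3140.3 in the null, and 84.4 to 119 and 2510.3 to 4959.5 in the cKO. Sertoli markers summed to 34.3 to 56.7 and 89.1 to 145 FPKM in WT, 25.4 to 35.8 and 151 to 208 in the null and 41.4 to 71.05 and 196 to 307 in the cKO. Of these, 3 of 10, 8 of 10 and 3 of 9 were called higher in KIT+ and 1 lower each time. Of 12 peritubular and stromal markers, 6 were called lower in WT KIT+ (sums 550.1 to 792 FPKM in THY1+ and 281 to 535 in KIT+), against 1 lower and 1 higher in each mutant. Of 8 endothelial markers, 1 was called lower in WT, 3 higher and 1 lower in the null and 6 higher in the cKO. Of 5 tested erythroid markers, 4 were called higher in the null alone. No listed marker was at 0 in all libraries of a group. Hk3, a hexokinase of myeloid cells, was at 3.76 ± 1.07 FPKM (SD, n = 3) in WT THY1+ and 0.301 ± 0.0295 in WT KIT+. The part of these cells in the differences of the 34 members was not tested. Of the germ cell lists, 12 of 12 undifferentiated markers were called lower and 4 of 6 differentiating markers higher in WT KIT+, which is the direction of the labels.

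The second question was what loss of ZBTB16 does to these genes within a fraction. In THY1+ cells a single member, Slc2a1, was called, 1 of 34 (2.94%) beside 3.98% of all genes (2.71% higher and 1.26% lower in the null). Slc2a1 was at 12.4, 13.2 and 10.5 FPKM in WT and 7.23, 8.02 and 7.25 in null libraries, a value 1.59-fold lower in the null with no overlap (log2 change -0.67 ± 0.14 (SE), adjusted p = 0.0193). The call was lost without WT THY1+ replicate 1 or 2 or null THY1+ replicate 1 or 3 (log2 change -0.65 to -0.60, adjusted p 0.0729 to 0.0862). Next in adjusted p were Slc16a1, at 28.1, 29.8 and 29.7 FPKM in WT and 39.000, 35.6 and 39.05 in null libraries (log2 change 0.37 ± 0.08 (SE), adjusted p = 0.0230), and Eno3, an enolase best known from muscle, at 7.52, 9.01 and 8.59 and 11.3, 13.9 and 11.3 (log2 change 0.53 ± 0.11 (SE), adjusted p = 0.0241). Both were higher in every null library but short of the 1.5-fold limit. The median log2 change of the 34 was 0.07, beside -0.03 over all genes. Beside this comparison, summed macrophage markers were 1086 to 1241 FPKM in WT THY1+ and 513 to 947 in null THY1+, with 2 of 12 called lower. The summed undifferentiated markers were 155 to 172 and 159 to 210.1. Of these 12 markers, 2 were called lower in the null, and 6 lay above and 6 below 0. Markers of other somatic cells also had mostly negative changes: 8 of 8 Leydig markers (median log2 change -0.73), 11 of 12 peritubular and stromal (-0.60), 9 of 10 Sertoli (-0.58), 5 of 5 erythroid (-0.78) and 7 of 9 T cell markers (-0.57) were below 0, of which 1 T cell marker was called. Endothelial markers were more evenly split, with 5 of 8 below 0 (median log2 change -0.44) and no call. All 7 general germ cell markers were above 0 (median 0.32, 1 called higher). Their part in the Slc2a1 difference was not tested. With the replicate number as a block, Slc2a1 remained the single call among members, while the calls over all genes went from 890 to 1980.

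In KIT+ cells no member was called in limma, beside 0.259% of all genes. The members at an unadjusted p under 0.05 numbered 13 of 34 (38.2%), beside 17.3% of all genes. Ldha came with the largest change, at 9.14, 15.8 and 14.01 FPKM in WT KIT+ and 18.2, 23.4 and 25.7 in null KIT+ (log2 change 0.81 ± 0.18 (SE), adjusted p = 0.129), every null library lying above every WT library. Ldhb, at 18.1, 25.2 and 22.6 and 29.5, 32.7 and 34.1 FPKM, also did not overlap (log2 change 0.56 ± 0.13 (SE), adjusted p = 0.129). With the replicate number as a block, Ldha was called (log2 change 0.81, adjusted p = 0.0337, limma), 1 of 34, and the calls over all genes went from 58 to 513. Of the 34 members, 27 had a positive and 7 a negative log2 change, with a median of 0.33 beside 0.01 over all genes. The members share libraries, so this lean is a single observation on 6 libraries, of which WT KIT+ replicate 1 had the lowest summed level of the members, 486 FPKM, in the whole Zbtb16 table (range 486 to 753). Several lists of somatic markers leaned the same way without a call. Above 0 were 11 of 12 peritubular and stromal (median log2 change 0.68), 7 of 8 Leydig (0.53) and 8 of 8 endothelial markers (0.46). So were 8 of 10 Sertoli (0.39) and 5 of 5 erythroid markers (0.53). Macrophage markers (7 of 12 above 0, median 0.07) and T cell markers (4 of 9 above 0, median -0.12) were more evenly split. By contrast, 5 of 7 general germ cell markers were below 0 (median -0.20), as were 4 of 6 differentiating markers (median -0.25), without a call. The differentiating markers summed to 333 to 339 FPKM in WT KIT+ and 246 to 286 in null KIT+. Of 12 undifferentiated markers, 8 were above 0 (median 0.12). The part of all these cells in the lean of the members was not tested.

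Whether the fraction step differed between null and WT was tested by the interaction of genotype and fraction. No member was called (0.0313% of all genes were), and 8 of 34 (23.5%) had an unadjusted p under 0.05, near the 22.4% of all genes. With the replicate number as a block, Tpi1, Pfkfb3 and Ldhb were called (adjusted p = 0.0207, 0.0266 and 0.0309, limma), and the calls over all genes went from 7 to 2756. The largest terms were those of Tpi1 (log2 change 1.06 ± 0.28 (SE), adjusted p = 0.0944) and Pdk4 (log2 change 1.06 ± 0.53 (SE), adjusted p = 0.257), both with a steeper rise into KIT+ in the null. Tpi1 was lower in null than WT THY1+ libraries and above every WT KIT+ library in null KIT+ replicates 2 and 3. The Tpi1 term was a call without null KIT+ replicate 1 (log2 1.28, adjusted p = 0.0405, limma). Pfkfb3 had a term of 0.70: it fell from THY1+ to KIT+ in WT and was at 1.94, 1.99 and 1.897 and 1.96, 1.83 and 1.81 FPKM in the null (log2 change -0.06). It was the single member without overlap in opposite directions by genotype in the 2 fractions, 1 of 34 (2.94%) beside 2.48% of all genes.

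For SOX3, the effect of genotype was averaged over both fractions, which does not depend on the labels of the WT libraries. It called 4 members, 3 higher and 1 lower in the cKO, beside 10.3% of all genes (7.49% higher and 2.83% lower). Pdk4 had the largest effect (log2 change 1.01 ± 0.21 (SE), adjusted p = 0.00705), with 0.628, 0.879 and 0.331 FPKM in cKO THY1+, 2.96, 3.61 and 3.296 in cKO KIT+, 1.17, 1.005 and 0.801 in labelled THY1+ and 0.465, 0.515 and 0.304 in labelled KIT+. Only the cKO KIT+ libraries stood clear of the rest. Pfkfb4 (log2 change 0.71 ± 0.16 (SE), adjusted p = 0.0107) was at 2.79, 2.98 and 3.48 FPKM in cKO THY1+, 7.603, 7.45 and 5.103 in cKO KIT+, and 4.27, 2.56 and 2.26 and 2.62, 2.44 and 2.61 in labelled THY1+ and KIT+. Its cKO KIT+ libraries were again the highest 3 of 12.

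Eno2, the neuronal enolase, was low throughout (log2 change 0.59 ± 0.18 (SE), adjusted p = 0.0362), at 1.05, 1.47 and 0.9501 and 0.497, 0.575 and 0.575 FPKM in cKO THY1+ and KIT+ and 0.533, 0.312 and 0.3302 and 0.749, 0.741 and 0.454 in labelled THY1+ and KIT+. Eno3 was lower in the cKO (log2 change -0.60 ± 0.10 (SE), adjusted p = 0.00356), at 6.14, 6.63 and 6.94 and 6.45, 8.36 and 6.95 FPKM against 11.2, 13.3 and 10.9 and 8.898, 11.3 and 8.27 in WT, and the 6 cKO and 6 WT libraries overlapped only through cKO KIT+ replicate 2 and labelled KIT+ replicate 3. The Eno2 call was lost without WT THY1+ replicate 2 or 3 or WT KIT+ replicate 1 or 3 or cKO THY1+ replicate 1 or 2 or cKO KIT+ replicate 1 or 2 or 3 (log2 change 0.49 to 0.64, adjusted p 0.0501 to 0.0834), and that of Eno3 without WT THY1+ replicate 2 or WT KIT+ replicate 2 or cKO THY1+ replicate 1 or cKO KIT+ replicate 1 (log2 change -0.58 to -0.54, adjusted p 0.00805 to 0.0101), with WT fractions named as labelled. Pfkl became a call without WT THY1+ replicate 1 or cKO KIT+ replicate 2 (log2 change 0.59 to 0.63, adjusted p 0.00691 to 0.0109) and Pfkm without WT THY1+ replicate 1 or cKO THY1+ replicate 1 or 3 (log2 change 0.59 to 0.61, adjusted p 0.00470 to 0.00637). Leydig markers were higher in cKO KIT+ (2510.3 to 4959.5 FPKM) than in either WT group (1254 to 2024 in labelled THY1+, 70.8 to 117 in labelled KIT+), and 4 of 8 were called higher in the averaged comparison, as were 4 of 9 Sertoli, 3 of 12 peritubular and stromal and 3 of 8 endothelial markers. Their part in the 4 member calls was not tested.

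Comparisons were also made between cKO and WT libraries that were both rich in Thy1, and between those that were both rich in Kit. Between cKO THY1+ and WT labelled KIT+ libraries, both rich in Thy1, no member was called and 0.0707% of all genes were, with 5 of 34 members (14.7%) at an unadjusted p under 0.05, near the 13.2% of all genes. A replicate block gave no member call here either, and 29 calls over all genes in place of 15. Between cKO KIT+ and WT labelled THY1+ libraries, both rich in Kit, 8 members were called, 7 higher and 1 lower in the cKO, beside 17% of all genes (12.4% higher and 4.57% lower). Higher were Pdk4 (1.64), Pfkfb4 (1.15), Ldha (0.98), Pfkl (0.85), Pfkm (0.85), Tpi1 (0.83) and Pdha1 (0.66, all log2 changes), and lower was Eno3 (-0.70). Tpi1, for example, was at 59.4, 43.2 and 49.4 FPKM in cKO KIT+ and 36.3, 26.2 and 23.8 in labelled THY1+, without overlap. Ldha was not called without WT THY1+ replicate 2 or 3 or cKO KIT+ replicate 1 (log2 change 0.76 to 0.90, adjusted p 0.0538 to 0.0587) nor Pdha1 without WT THY1+ replicate 2 or cKO KIT+ replicate 1 (log2 change 0.56 to 0.58, adjusted p 0.0168 to 0.0177), and Pfkfb2 and Ldhb became calls without cKO KIT+ replicate 3 and labelled THY1+ replicate 1 (log2 0.61 and 1.03). Cell markers differed between the same libraries: sums in cKO KIT+ and labelled THY1+ were 196 to 307 and 104 to 130.1 FPKM for Sertoli, 645 to 797 and 274 to 445 for peritubular and stromal markers. They were 43.8 to 72.5 and 26.7 to 33.1 for endothelial and 717 to 966 and 1226 to 1317 for general germ cell markers. The differentiating markers summed to 210 to 273 FPKM in cKO KIT+ and 384 to 459 in labelled THY1+, without overlap. Called were 3 of 9 Sertoli, 5 of 8 Leydig, 4 of 12 peritubular and stromal and 5 of 8 endothelial markers as higher in the cKO, and 3 of 7 general germ cell markers as lower. Their part in the 8 member calls was not tested. Whether the difference between these 2 comparisons is itself larger than the spread was not tested.

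With the WT libraries taken by their labels, 12 members were called between cKO and labelled THY1+ (9 higher, 3 lower, beside 29.1% of all genes, 17.8% higher and 11.3% lower), and 13 between cKO and labelled KIT+ (9 higher, 4 lower, beside 25.1%, 12.4% higher and 12.6% lower). In these comparisons the same genes ran in opposite directions: Slc2a1 differed by log2 0.91 in the first and -0.88 in the second, Pdk1 by 1.08 and -1.43, and Slc16a1 by -0.88 and 0.98. Without overlap and in opposite directions in these comparisons were 13 of 34 members (38.2%), beside 19.8% of all genes. Slc2a1, Pdk1 and Slc16a1 are genes that separate the fractions in the other libraries, and the exchange of Thy1 and Kit runs through both comparisons.

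**Figure D4:**
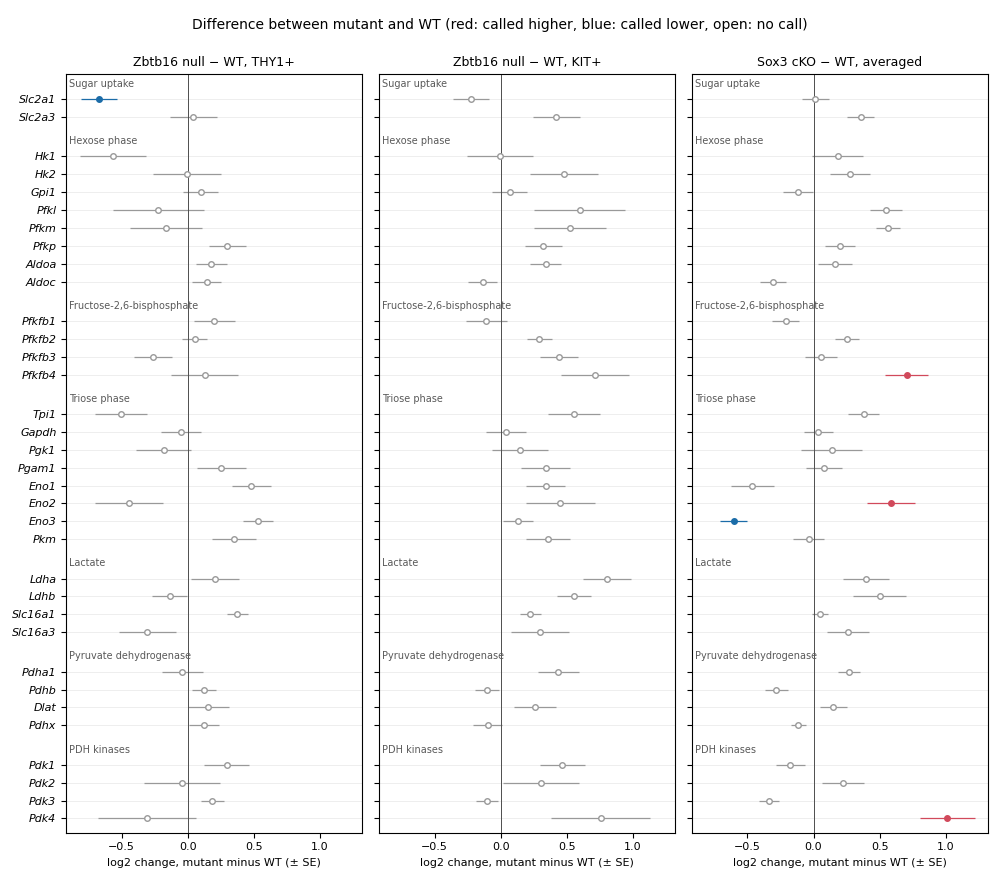
Difference in log2(FPKM + 0.1) between mutant and WT for each member (rows), with the standard error of the fit, for Zbtb16 null in THY1+ and KIT+ cells and for Sox3 cKO averaged over both fractions. Filled red points are called higher and filled blue points lower; Slc2a1 is the only filled point in the left panel, the middle panel has none, and the right panel has Pfkfb4, Eno2 and Pdk4 in red and Eno3 in blue.

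Where several genes serve a single step, the share of each in their summed FPKM takes no account of library scaling and describes the make-up of that step. Pdk1 made up 39.95, 41.2 and 40.5% of the PDK kinases in the 3 WT THY1+ libraries and 10.2, 17.005 and 16.3% in WT KIT+, 41.8, 44.3 and 42.1% and 18.2, 19.2 and 19.9% in the null, and 34.5, 32.5 and 34.8% and 20.1, 13.3 and 18.6% in the cKO. Most of the remainder was Pdk3, at 55.9% ± 1.11 (SD, n = 3) in WT THY1+ and 78.8% ± 5.09 in WT KIT+. Pdk4 stayed a small part, with its highest share, 5.65, 5.86 and 6.05%, in cKO KIT+. In each of these genotypes every THY1+ library had a larger Pdk1 share than any KIT+ library, and Pdk3 was the larger part throughout.

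Ldhb made up 49.7, 44.9 and 46.98% of the lactate dehydrogenase pair in WT THY1+ and 66.4, 61.4 and 61.7% in WT KIT+. In the null its share was 40.2, 40.99 and 42.7% and 61.8, 58.3 and 56.97%, and in the cKO 41.1, 51.8 and 38.2% and 59.4, 58.8 and 54.5%, so that the KIT+ libraries were the higher ones in each genotype. Ldha and Ldhb share part of their windows with pseudogenes, and the share is that of the deposited values. Hk1 made up 32.6, 29.1 and 30.5% of the hexokinase pair in WT THY1+, 24.4, 21.04 and 20.9% in WT KIT+, 23.1, 23.02 and 22.7% in null THY1+ and 17.3, 16.6 and 16.5% in null KIT+. For hexokinase, both the step and the genotype separate the libraries without overlap, as the null THY1+ values lie below all WT THY1+ values and the null KIT+ values below all WT KIT+ values.

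The make-up of the glucose transporter pair overlapped between the fractions. Slc2a3 made up 24.1, 20.8 and 22.1% of the pair in WT THY1+ and 22.4, 21.8 and 23.4% in WT KIT+, while both genes were called lower. In the null its share was 31.4, 33.9 and 31.1% in THY1+ and 29.02, 34.3 and 31.95% in KIT+, above every WT library in both fractions. Pfkp made up 25.2, 26.6 and 32.5% of the phosphofructokinases in WT THY1+ and 18.6, 14.96 and 19.7% in WT KIT+, and 37.4, 29.3 and 39.7% and 16.9, 13.1 and 17.1% in the null. Aldoa (85.8 to 93.2% of the aldolase pair) and Slc16a1 (90.1 to 97.0% of the transporter pair) dominated their steps in all 24 libraries.

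**Figure D5:**
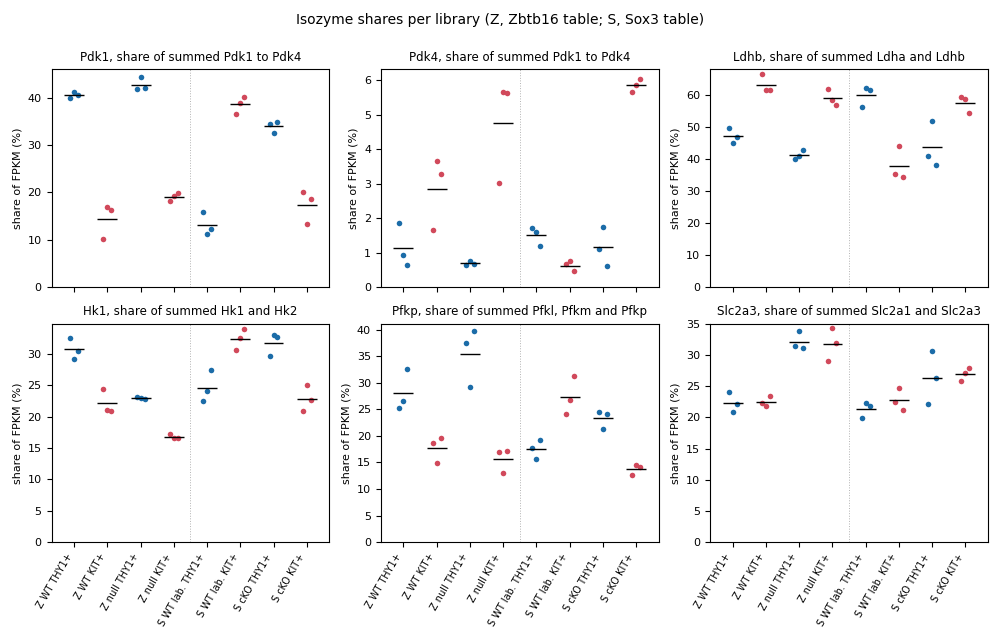
Share of a gene in the summed FPKM of the genes for its step (vertical axis, percent, from 0), one point per library and a bar at the mean of 3, for 8 groups. Blue is THY1+ and red KIT+ as labelled, with the Zbtb16 table left of the dotted line and the Sox3 table right of it; the Pdk1 share is high in blue and low in red except in the Sox3 WT libraries, where the colours are exchanged.

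Other genes of the pathway came from lists that do not include the 34. Of 45 tested, 14 (31.1%) were called in the WT step, 7 higher and 7 lower, beside 21.2% of all genes. Among them, 3 of 11 tested other glycolysis genes were called (2 higher, 1 lower): Hk3 lower (log2 change -3.23 ± 0.32 (SE), adjusted p = 3.01e-05), and Pklr, the liver and red cell pyruvate kinase, and Bpgm, which makes bisphosphoglycerate, higher (log2 0.73 and 0.62). Of 11 other pyruvate genes, 4 were called: Emb, an accessory protein of monocarboxylate transporters, was lower (log2 change -1.23 ± 0.13 (SE), adjusted p = 4.90e-05), as was the transporter Slc16a7 (-1.39), while Dld, the shared dehydrogenase of the pyruvate complex, and Bsg, the usual partner of MCT1, were higher (0.67 and 0.60). Bsg thus moved in the direction of Slc16a1 and Emb against it.

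Of 5 tested testis isozymes, 2 were called lower in WT KIT+, Ldhc and Pgk2 (log2 -1.26 and -1.04), both known from later germ cells. Of 7 pentose phosphate genes, G6pdx was lower and Rpe higher (-0.75 and 0.60). Of 11 oxygen-sensing genes, 3 were called: Epas1, a hypoxia-inducible factor, was lower (-1.34), and the mitophagy receptor Bnip3 and the ubiquitin ligase subunit Vhl were higher (0.96 and 0.68). The list as a whole had a median of 0.00.

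By genotype, Ldhc, the lactate dehydrogenase of spermatocytes and sperm, was the only gene of these lists called in both fractions of the Zbtb16 null. It was at 2.04, 1.64 and 2.24 FPKM in WT THY1+ and 6.27, 5.88 and 6.24 in null THY1+ (log2 change 1.60 ± 0.20 (SE), adjusted p = 0.00161), and at 0.533, 0.809 and 1.01 and 1.78, 1.65 and 1.84 in KIT+ (log2 change 1.11 ± 0.20 (SE), adjusted p = 0.0499). In THY1+ cells, Emb (0.77) was also higher in the null. In the averaged Sox3 comparison, Slc16a7 (0.73) and the transketolase Tkt (0.60) were higher in the cKO. No gene of the oxygen-sensing list was called for the Zbtb16 null in either fraction or in the averaged Sox3 comparison. Between cKO and labelled THY1+ libraries, Epas1 (1.22) and the carbonic anhydrase Car9 (1.16) were called higher and Vhl (-0.97) and Bnip3 (-1.23) lower. Car9 was also called higher in cKO KIT+ than in labelled THY1+ libraries (1.17).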

How the data were processed

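RNA from 24 libraries of mouse testis cells sorted for spermatogonia was analysed from 2 tables. The authors prepared stranded, ribosome-depleted libraries, aligned single 50-base reads with Novoalign to mm10 and deposited FPKM per gene. The authors' notes also name DESeq2. Novoalign was run with -r all 50, which reports the alignments of a read up to that number; how such reads entered the FPKM is not given in the sources used here. All 34 members were named. Values in every library are given for members called in the Zbtb16 WT step, in a Zbtb16 genotype comparison or in the averaged Sox3 effect, and for the most abundant form of a step; other genes were named from pathway lists where called, up to 4 per list.

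Genes with a mean of at least 0.1 FPKM entered limma 3.58.1 (R 4.3.3, statmod 1.5.0) on log2(FPKM + 0.1), with 4 group means per table and trended, robust moderation. Adjusted p is Benjamini-Hochberg over all genes of the table, and a fold on this scale understates changes of low genes. The 2 tables were fitted separately. The code was tested on simulated data. Labels do not say whether pools came from separate litters, so p-values measure the spread between pools. Replicate numbers are those of the labels. Same-numbered libraries deviated together (r = 0.125 to 0.520 in all 3 pairs) for null against WT in either fraction, the null step and cKO THY1+ against labelled KIT+, so values with the replicate number as a block are given there and for the interaction, the contrast of the Zbtb16 genotype comparisons. The members and lists were chosen with earlier results of these data known. Shared windows and positions came from GENCODE annotation of GRCm38, and promoters from RefSeq. Depth, which was estimated from the lowest values, limits precision for members under 1 FPKM. Alternatives were another pseudocount, filter, scaling, a replicate block, the compared groups alone, leaving out each library and, in the Sox3 table, replicates 2 and 3 alone. One gene of the wider pathway lists is not reported here.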

Additional observations from a re-analysis of the deposited data

Results flagged for a closer look

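In the Zbtb16 null, the Pfkfb3 values lay without overlap on opposite sides of WT in the 2 fractions, but neither change was called. It was lower in every null THY1+ library (1.94, 1.99 and 1.90 FPKM) than in any WT THY1+ library (2.30, 2.53 and 2.23), a log2 change of -0.26, and higher in every null KIT+ library (1.96, 1.83 and 1.81) than in any WT KIT+ library (1.23, 1.62 and 1.22), a log2 change of 0.44. The test of the difference, the genotype by fraction interaction, gave log2 change 0.70 ± 0.20 (SE), adjusted p = 0.104 in limma and did not pass; with the replicate number as a block, adjusted p was 0.0266. Opposite changes without overlap were found in 1 of 34 members (2.94%), near the 2.48% of all genes.

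In the Sox3 table as labelled, 13 members (Slc2a1, Slc2a3, Hk1, Pfkp, Pfkfb2, Pfkfb3, Gapdh, Pkm, Slc16a1, Pdha1, Pdhx, Pdk1 and Pdk2) differed between cKO and WT without overlap in one direction for the libraries labelled THY1+ and in the other for those labelled KIT+, as did 19.8% of all genes. Between KIT+ and THY1+, 12 members (Slc2a1, Slc2a3, Pfkp, Pfkfb2, Pfkfb3, Gapdh, Pkm, Slc16a1, Pdhx, Pdk1, Pdk3 and Pdk4) did so for cKO and WT mice, beside 25% of all genes. Neither difference was tested, and Thy1 and Kit are exchanged in the same WT libraries: Thy1 was 0.253, 0.254 and 0.213 FPKM in labelled THY1+ and 3.84, 3.59 and 4.06 in labelled KIT+.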

How the results depend on the processing

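Of 408 pairs of a member and a comparison, 89 were called, 54 of these in every alternative run, and 35 were lost in at least 1. Another 25 became calls in some alternative, no called pair changed direction, and 294 were never called, 64 of these with a change of sign in some setting. The number of members called moved by more than 1.5 times as follows, and the cause was not tested. Leaving out 1 library gave 0 to 1 calls for null against WT in THY1+, 0 to 1 for the Zbtb16 interaction (1 without null KIT+ replicate 1) and 2 to 6 for the averaged Sox3 effect (2 without labelled THY1+ replicate 2 or cKO KIT+ replicate 1). A pseudocount of 1 left 1 call in the averaged Sox3 effect. With replicates 2 and 3 alone, which are shallower and fewer, the averaged Sox3 effect had 2, the cKO step 8 and cKO KIT+ against labelled THY1+ 5. The 5 other comparisons with calls kept counts of 9 to 12 (WT step), 11 to 16 (null step), 7 to 11 (Sox3 WT as labelled), 10 to 14 (cKO against labelled THY1+) and 11 to 15 (cKO against labelled KIT+).

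Same-numbered libraries had correlations of their deviations from -0.0278 to 0.520 in the Zbtb16 table (16 of 18 over 0.1) and -0.119 to 0.348 in the Sox3 table (12 of 18), and 11 of 12 and 9 of 12 libraries correlated best with their own number. A replicate block gave 1 call for null against WT in KIT+ (Ldha), 3 for the interaction (Pfkfb3, Tpi1 and Ldhb), made calls of Eno2 (WT step), Pfkm (null step), Hk1 (Sox3 WT as labelled), Ldha and Pdk4 (cKO against labelled THY1+) and Ldhb (cKO KIT+ against labelled THY1+), removed none, and raised the calls over all genes from 890 to 1980 in THY1+, 58 to 513 in KIT+, 7 to 2756 for the interaction and 15 to 29 for cKO THY1+ against labelled KIT+. Over all genes, leaving out 1 library gave 295 to 820 calls in place of 890 for null THY1+, 25 to 37 in place of 58 for null KIT+, 1 to 867 in place of 7 for the interaction and 5 to 9 in place of 15 for cKO THY1+ against labelled KIT+. Other settings gave as few as 468 (a filter at 1 FPKM) for null THY1+, 2 for null KIT+ (compared groups alone) and for the interaction (median-ratio scaling), 2883 in place of 4737 (WT step), 4070 in place of 6532 (null step) and 2473 in place of 4809 (cKO step). With replicates 2 and 3 alone there were 3283 in place of 5314 for cKO against labelled KIT+, 597 in place of 2188 for the averaged Sox3 effect, 0 in place of 15 and 987 in place of 3608 for cKO KIT+ against labelled THY1+. Members under 1 FPKM are limited by depth, and those with many pseudogenes by shared sequence.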
